A study of Canis lupus familiaris with 20 samples.

Results

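A set of 5 nearby genes of dog chromosome 12 was followed in growing vertebral cartilage, at a position that fits the cluster of TREM and TREM-like receptors. They were the 5 listed Ensembl genes between 9858317 and 10000216 in CanFam3.1, of 24580 genes in the count table, and were chosen by their measured counts, which stood higher in MPS VII than in control cartilage at day 14 and day 9. Gene expression had been measured by RNA sequencing in cartilage of the T12 vertebra, 1 library per animal, in 4 groups of 5 dogs. The groups were MPS VII dogs and control dogs at postnatal day 14, and MPS VII dogs and control dogs at postnatal day 9. Replicates are numbered in accession order within a group, so a shared number does not pair animals. Mucopolysaccharidosis VII (MPS VII) is a lysosomal storage disease in which the enzyme encoded by GUSB is deficient and glycosaminoglycans accumulate. MPS VII dogs were homozygous and control dogs heterozygous for the missense change R166H in GUSB, so every animal carried at least a single copy of it. Cranial and caudal tissue of the vertebra was combined in each animal, and control dogs came from matching litters that the labels do not identify.

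Triggering receptors expressed on myeloid cells (TREM) and TREM-like proteins are surface receptors with an immunoglobulin domain. They are found on macrophages, microglia, neutrophils, osteoclasts and, for some members, platelets. Several of them have no signalling tail of their own and pair with the adaptor TYROBP, whose phosphorylated motif recruits the kinase SYK. Others carry inhibitory motifs. In humans, loss of TREM2 or TYROBP causes a disease of bone cysts and dementia, and both proteins take part in the formation of osteoclasts, the cells that resorb mineralised cartilage and bone.

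The label of the cluster rests on position alone. The count table does not pair its identifiers with gene names, and 0 of 24580 identifiers matched the RefSeq gene table of another dog assembly, UU_Cfam_GSD_1.0. That table names TREM2, TREML2 and TREM1 in this order on chromosome 12, with 4 entries without a gene name among them. No single gene of the 5 is therefore given a name or a role here, and marker genes of macrophages, osteoclasts or chondrocytes could not be looked up. The 5 genes are called below by the first base of their span. ENSCAFG00000001582 spans 9858317 to 9906286 on the plus strand, with 38 exon intervals and 5884 bases of exon. The other 4 lie on the minus strand. ENSCAFG00000001584 spans 9914891 to 9920655, with 5 exon intervals and 2388 bases. ENSCAFG00000001586 spans 9923301 to 9928223, with 5 exon intervals and 1114 bases. ENSCAFG00000032614 spans 9934948 to 9947254, with 6 exon intervals and 6812 bases. ENSCAFG00000001591 spans 9990388 to 10000216, with 4 exon intervals and 1368 bases. In strand and in number of exon intervals the 9858317 gene thus stood apart from the other 4. It was kept because the rule lists it, and whether it belongs to the receptor family could not be checked, so counts and medians are also given for the other 4.

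All 5 genes passed the filter on low counts, as did 14550 genes in all. Libraries held 15772761 to 28028365 counts, with 15772761 to 22471728 at day 14 and 21419930 to 28028365 at day 9. MPS VII day 9 replicate 3 stood apart from its group on the third principal component of all genes, at 85.0 against -17.8 to -4.70. It also stood apart on the second, at -55.6 against -2.53 to 9.96. On that component the MPS VII libraries of day 14 lay at -48.6 to -24.4. Levels are given as CPM, counts scaled to the normalised size of the library, and, where genes are compared with each other, as RPKM, which divides CPM by the kilobases of exon. In bulk tissue, more cells of a type and more RNA per cell cannot be told apart.

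The genotype comparisons chose these genes, so their values are described and not tested. At both ages all 5 genes had a higher mean in MPS VII than in control cartilage. For 5 of the 5 genes no library of MPS VII cartilage fell within the control range at day 14, where 9.27% of all tested genes were higher without overlap. At day 9 this held for 3 of the 5, beside 5.26% of all tested genes. The median log2 fold change of the 5 genes was 1.64 at day 14 and 2.60 at day 9, against 0.03 and 0.02 for all tested genes. For the 4 minus-strand genes alone the median was 2.55 at day 14 and 2.62 at day 9, and groups did not overlap for 4 of the 4 at day 14 and 3 of the 4 at day 9.

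The 9923301 gene was the most abundant of the 5 in MPS VII cartilage. At day 14 its 5 MPS VII libraries held 18.3, 26.7, 13.7, 27.3 and 10.9 CPM, against 1.53, 0.865, 2.61, 2.16 and 1.64 CPM in the 5 control libraries. At day 9 the MPS VII libraries held 12.7, 12.4, 14.6, 11.9 and 10.7 CPM, against 0.872, 0.427, 0.528, 0.812 and 0.537 CPM in controls. Every MPS VII library was above every control library of both ages, and the day 9 MPS VII libraries lay closer together than those of day 14. The log2 fold change, MPS VII over control, was 3.47 ± 0.28 (SE) at day 14 and 4.28 ± 0.30 at day 9. Its mean level exceeded that of 60.8% of tested genes in MPS VII cartilage of day 14 and 18.7% in controls of that age.

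The 9914891 gene lay 2.65 kb from it and was also several-fold higher in MPS VII cartilage. Its MPS VII libraries of day 14 held 7.58, 11.3, 6.64, 5.72 and 2.81 CPM, against 0.403, 0.384, 0.794, 0.656 and 0.605 CPM in controls. At day 9 the MPS VII libraries held 2.45, 4.59, 4.11, 3.103 and 2.94 CPM, against 0.628, 0.512, 0.352, 0.928 and 0.358 CPM in controls. The genotypes did not overlap at either age, and MPS VII replicate 2 of day 14 was the highest library. The log2 fold change was 3.58 ± 0.35 (SE) at day 14 and 2.64 ± 0.35 at day 9.

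The 9934948 gene had the longest exon sequence of the 5 and was the most abundant by CPM in controls. It held 10.01, 12.9, 10.9, 12.2 and 6.21 CPM in MPS VII libraries of day 14, against 4.11, 4.996, 3.69, 2.81 and 2.94 CPM in controls. At day 9 it held 3.99, 5.01, 7.74, 4.98 and 6.43 CPM in MPS VII libraries, against 3.98, 1.07, 2.55, 4.17 and 1.97 CPM in controls. The genotypes were apart at day 14 and overlapped at day 9, where control replicate 4 lay above MPS VII replicate 1. The log2 fold change was 1.49 ± 0.29 (SE) at day 14 and 1.04 ± 0.29 at day 9.

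The 9990388 gene rested on the fewest counts, with 32 to 62 per MPS VII library and 8 to 34 per control library at day 14, and 14 to 66 against 2 to 10 at day 9. Its level at day 14 was 2.30, 2.09, 1.79, 2.01 and 3.01 CPM in MPS VII libraries, against 0.403, 1.63, 0.454, 0.7501 and 0.346 CPM in controls. At day 9 it was 1.82, 1.67, 2.61, 2.16 and 0.643 CPM in MPS VII libraries, against 0.139, 0.427, 0.264, 0.5798 and 0.0896 CPM in controls. The groups did not overlap, but control replicate 2 of day 14 came close to the MPS VII range, and MPS VII replicate 5 of day 9 close to the control range. The log2 fold change was 1.64 ± 0.45 (SE) at day 14 and 2.60 ± 0.49 at day 9. Without control replicate 2 the day 14 value was 2.19.

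The 9858317 gene, on the plus strand, differed least between genotypes. It held 2.16, 2.05, 2.18, 2.65 and 1.12 CPM in MPS VII libraries of day 14, against 0.726, 0.817, 0.794, 0.984 and 0.649 CPM in controls. At day 9 it held 1.23, 1.59, 2.61, 1.46 and 2.16 CPM in MPS VII libraries, against 0.558, 1.75, 1.41, 1.68 and 1.79 CPM in controls. The groups were apart at day 14 and intermingled at day 9. The log2 fold change was 1.35 ± 0.32 (SE) at day 14 and 0.34 ± 0.31 at day 9. Without MPS VII replicate 3 of day 9, the library that stood apart, the MPS VII mean at day 9 was 1.61 ± 0.398 CPM (SD, n = 4), against 1.44 ± 0.514 CPM in controls (SD, n = 5). The day 9 log2 fold change was 0.17 without that library, 0.13 without control replicate 1 of day 9, and up to 0.45 with other single libraries left out.

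**Figure D1:**
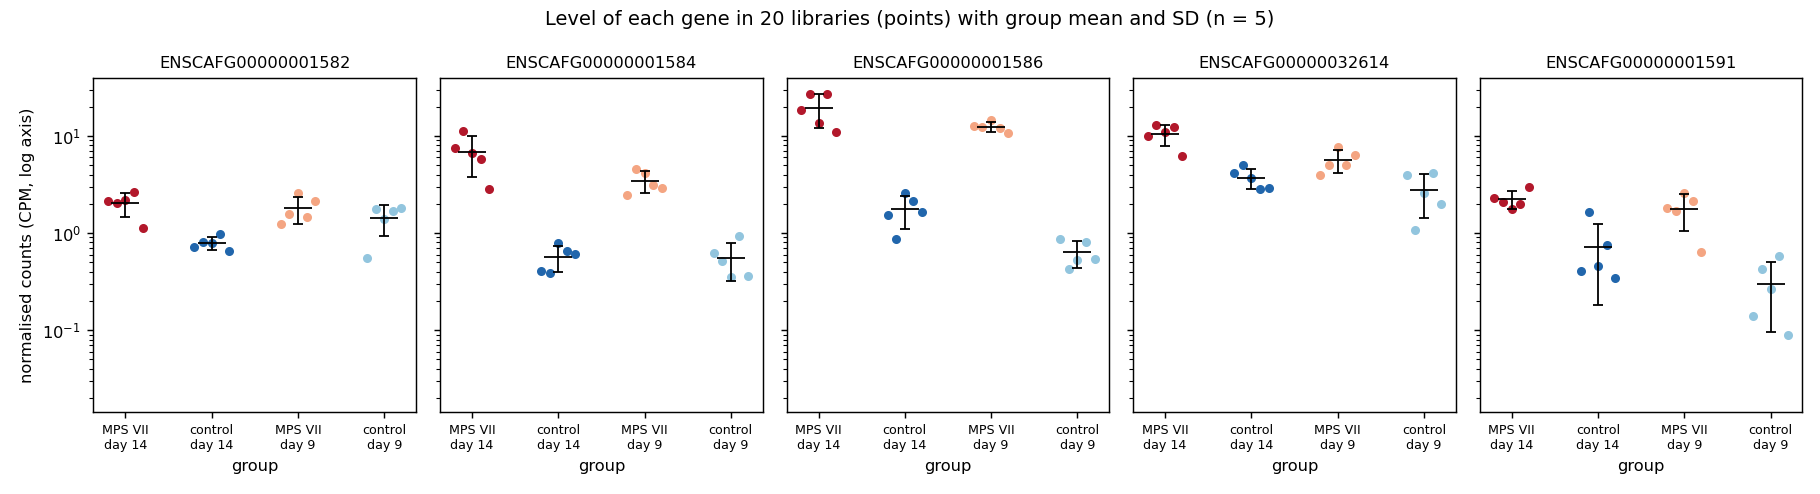
Level of each of the 5 genes in CPM (log axis) in 20 libraries, by group, in order along the chromosome. Points are libraries, horizontal bars group means and error bars the SD (n = 5). The MPS VII libraries of ENSCAFG00000001586 lie between 10.7 and 27.3 CPM and its control libraries between 0.427 and 2.61 CPM, whereas the groups of ENSCAFG00000001582 overlap at day 9.

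The genes had been chosen as nearby genes higher in MPS VII cartilage, and their lowest values are given here beside those of the genes around them. The lowest log2 fold change of the 5 genes was that of the 9858317 gene, at 1.35 at day 14 and 0.34 at day 9. The next lowest at day 9 was 1.04, for the 9934948 gene. Of the 3 nearest genes of the table on each side, 5 of 6 passed the filter on low counts. Their log2 fold changes ran from -0.30 to 0.46 at day 14 and from -1.60 to 0.07 at day 9. The value of -1.60 ± 0.87 (SE) belonged to a gene at 9808273 to 9817114 with 67 counts over the 10 MPS VII libraries and 117 over the 10 control libraries. The nearest flank, at 9835285 to 9854000, ended 4.32 kb before the 9858317 gene and had log2 fold changes of -0.30 ± 0.15 at day 14 and -0.07 ± 0.15 at day 9.

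Another 2 genes of the table lay between members and failed the filter on low counts. A minus-strand gene at 9950133 to 9959478 held 13 counts in 4 of 10 MPS VII libraries and 40 counts in 7 of 10 control libraries. A plus-strand gene of a single exon at 9963742 to 9964055 held 16 counts in 5 of 10 MPS VII libraries and 0 in all 10 control libraries. A count of 0 does not show that a gene was silent. Neither gene was tested. Higher counts in MPS VII cartilage were thus not seen for every gene of the span. The 9950133 gene held 10 counts in MPS VII and 34 in control libraries at day 14. At day 9 it held 3 and 6 counts, too few to compare.

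**Figure D2:**
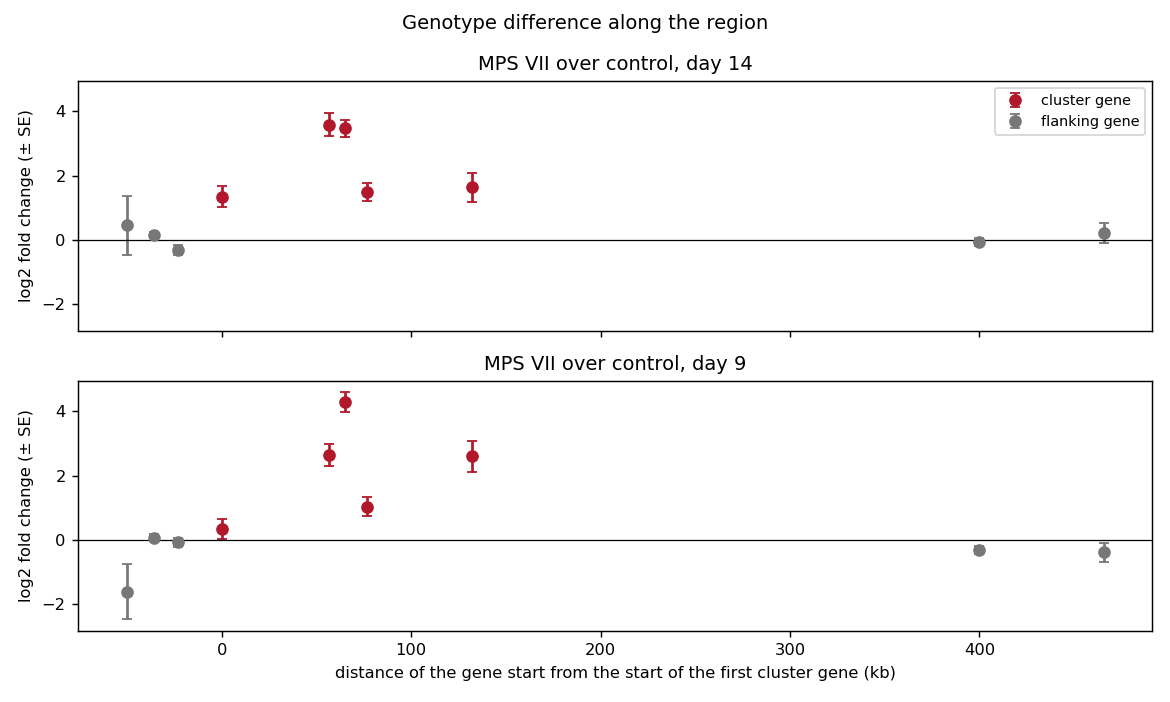
Log2 fold change, MPS VII over control, with its SE, of the 5 cluster genes (red) and the 5 tested flanking genes (grey) against the distance in kb of each gene's start from that of the first cluster gene, at day 14 (upper panel) and day 9 (lower panel). The cluster genes lie between 1.35 and 3.58 at day 14 and between 0.34 and 4.28 at day 9, and the flanking genes between -0.30 and 0.46 at day 14 and between -1.60 and 0.07 at day 9.

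Per kilobase of exon, the 9923301 gene stood above the other 4 in MPS VII cartilage. At day 14 it averaged 17.4 ± 6.68 RPKM in MPS VII libraries (SD, n = 5), and its lowest library was above the highest of any other member. The 9914891 gene followed at 2.85 ± 1.29 RPKM, the 9990388 gene at 1.64 ± 0.341 RPKM and the 9934948 gene at 1.53 ± 0.384 RPKM, each overlapping its neighbour in this order. The 9858317 gene was lowest at 0.345 ± 0.0953 RPKM and apart from the rest. The order was the same in MPS VII libraries of day 9, with 11.2 ± 1.27, 1.44 ± 0.3696, 1.301 ± 0.534, 0.827 ± 0.215 and 0.307 ± 0.0959 RPKM.

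Controls had another order. At day 14 the 9923301 gene, at 1.58 ± 0.593 RPKM, did not overlap with the 9934948 gene, next in the order at 0.545 ± 0.132 RPKM. It overlapped with the 9990388 gene, which reached 1.19 RPKM in control replicate 2, where the 9923301 gene held 0.776 RPKM. The 9990388 gene averaged 0.524 ± 0.391 RPKM, and the 9914891 gene at 0.238 ± 0.0729 RPKM and the 9858317 gene at 0.135 ± 0.0213 RPKM followed, each overlapping the next. In controls of day 9 all neighbours in the order overlapped, from 0.5702 ± 0.175 RPKM for the 9923301 gene to 0.219 ± 0.149 RPKM for the 9990388 gene. By CPM, the 9923301 gene made up 47.4% of the sum of the 5 genes in MPS VII cartilage of day 14 and 23.3% in controls. At day 9 it made up 49.6% in MPS VII cartilage and 11.2% in controls. The 9934948 gene made up 25.5% of the sum in MPS VII cartilage of day 14 and 49.1% in controls, and 22.4% and 48.4% at day 9.

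**Figure D3:**
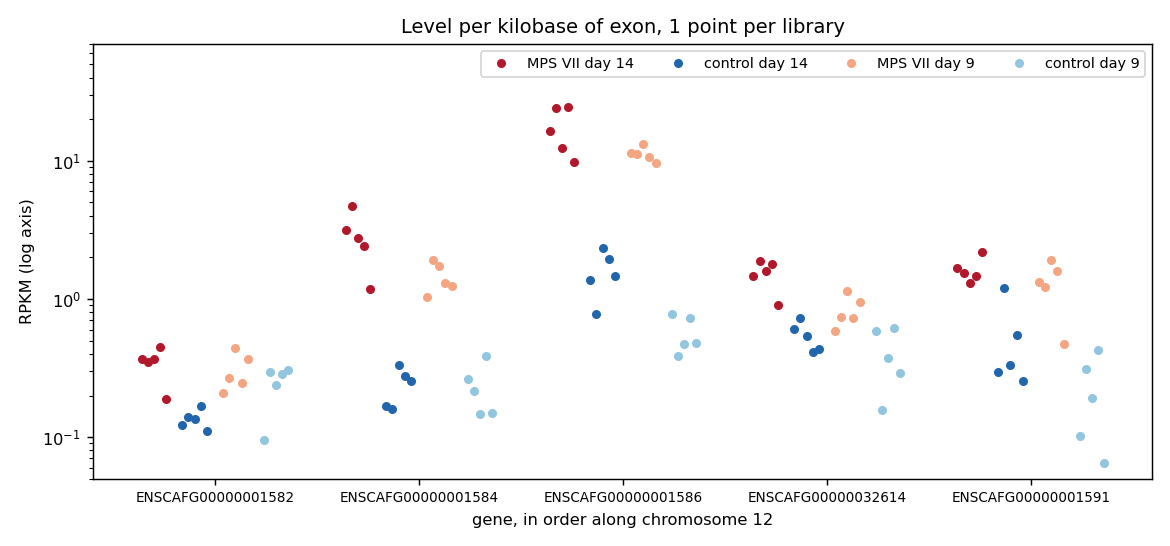
Level of each gene per kilobase of exon (RPKM, log axis), with 1 point per library and groups by colour. In MPS VII libraries ENSCAFG00000001586 lies between 9.61 and 24.5 RPKM, above the other 4 genes, while in control libraries of day 9 it overlaps with its neighbour in the order of levels.

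Age was not used to choose the genes and was tested. These comparisons use the same libraries as the genotype comparisons that chose the genes, so none of their adjusted p-values is independent of the choice. In MPS VII cartilage 2 of the 5 genes rose between day 9 and day 14 and none fell, the log2 fold changes of all 5 being above 0. The test was the quasi-likelihood test of edgeR, with p-values adjusted by Benjamini-Hochberg across the 14550 tested genes. Among all tested genes 12.7% rose and 9.92% fell. Both genes that rose were among the 4 on the minus strand. The 9914891 gene averaged 6.81 ± 3.07 CPM at day 14 and 3.44 ± 0.883 CPM at day 9 (SD, n = 5 each), with a log2 fold change of 0.98 ± 0.30 (SE) and an adjusted p of 0.0235 by edgeR. The 9934948 gene averaged 10.4 ± 2.62 CPM at day 14 and 5.63 ± 1.47 CPM at day 9, with a log2 fold change of 0.89 ± 0.28 and an adjusted p of 0.0265 by edgeR. For both genes the libraries of day 14 and day 9 overlapped, with MPS VII replicate 5 lowest at day 14.

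The 9923301 gene averaged 19.4 ± 7.44 CPM at day 14 and 12.5 ± 1.42 CPM at day 9 in MPS VII cartilage, and its log2 fold change of 0.63 ± 0.24 did not pass the threshold, with an adjusted p of 0.0606 by edgeR. The 9990388 gene averaged 2.24 ± 0.466 CPM at day 14 and 1.78 ± 0.731 CPM at day 9, with a log2 fold change of 0.33 ± 0.42 and an adjusted p of 0.6005 by edgeR. The 9858317 gene averaged 2.03 ± 0.561 CPM at day 14 and 1.81 ± 0.564 CPM at day 9, with a log2 fold change of 0.16 ± 0.31 and an adjusted p of 0.732 by edgeR. The median change of the 5 genes was 0.63, against -0.09 for all tested genes. For the 4 minus-strand genes alone it was 0.76. Both calls were lost without MPS VII replicate 2 of day 14 (edgeR adjusted p = 0.0818 for the 9914891 gene and 0.0535 for the 9934948 gene), and without MPS VII replicate 1 (0.0534 and 0.0609) or replicate 4 (0.0518 and 0.0587) of day 9. The 9923301 gene passed without MPS VII replicate 3 (0.0388) or 5 (0.0168) of day 14, MPS VII replicate 3 of day 9 (0.0321), or control replicate 2 (0.0343) or 3 (0.0427) of day 14.

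In control cartilage 2 of the 5 genes rose with age and 1 fell by the same edgeR test, where 21.8% of all tested genes rose and 20.7% fell. Of the 4 minus-strand genes 2 rose, and the gene that fell was the 9858317 gene. The 9923301 gene rose to 1.76 ± 0.6604 CPM at day 14, against 0.635 ± 0.195 CPM at day 9 (SD, n = 5 each), with a log2 fold change of 1.45 ± 0.31 (SE) and an adjusted p of 8.68e-04 by edgeR. The groups overlapped only through control replicate 2 of day 14, at 0.865 CPM, and control replicate 1 of day 9, at 0.872 CPM. This call held without any single library (edgeR adjusted p at most 0.00368).

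The 9990388 gene averaged 0.717 ± 0.535 CPM at day 14 and 0.29998 ± 0.204 CPM at day 9 in controls, with a log2 fold change of 1.28 ± 0.50 and an adjusted p of 0.0447 by edgeR. With only controls in the fit it failed the filter on low counts. It was thus tested here through its higher counts in MPS VII cartilage, for which it was chosen, and its call does not stand apart from that choice. Control replicate 2 of day 14 held 34 of the 76 counts of its group, and without it the log2 fold change was 0.75 (edgeR adjusted p = 0.223). The call was also lost without control replicate 4 of day 14 (0.0675), control replicate 1, 3 or 5 of day 9 (0.108, 0.07905 and 0.111), MPS VII replicate 1 of day 14 (0.0517) or MPS VII replicate 1, 2 or 4 of day 9 (0.0511, 0.0517 and 0.0505).

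The 9858317 gene fell in controls, to 0.794 ± 0.125 CPM at day 14 against 1.44 ± 0.514 CPM at day 9, with a log2 fold change of -0.85 ± 0.32 and an adjusted p of 0.0394 by edgeR. Its control libraries overlapped through replicate 1 of day 9, at 0.558 CPM, the lowest of all 20 libraries. The call was lost without control replicate 1, 2, 3 or 5 of day 14 (edgeR adjusted p 0.0823, 0.06300, 0.06499 and 0.0883) or control replicate 2, 3, 4 or 5 of day 9 (0.0873, 0.0579, 0.0770 and 0.0908). The genotype log2 fold change of the 9858317 gene was 1.35 at day 14 and 0.34 at day 9. Its choice thus leaned in part on the low control libraries of day 14, which also enter this test. The adjusted p of this fall is therefore not independent of the choice. The same holds for the other age calls, which also share libraries with the choice. The 9934948 gene averaged 3.71 ± 0.896 CPM at day 14 and 2.75 ± 1.32 CPM at day 9, with a log2 fold change of 0.44 ± 0.29 and an adjusted p of 0.239 by edgeR. The 9914891 gene averaged 0.569 ± 0.174 CPM at day 14 and 0.556 ± 0.238 CPM at day 9, with a log2 fold change of 0.04 ± 0.38 and an adjusted p of 0.945 by edgeR. The median change of the 5 genes in controls was 0.44, against -0.06 for all tested genes. For the 4 minus-strand genes alone it was 0.86.

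Age and sequencing depth went together. Control libraries held 16975358 to 20766128 counts at day 14 and 22703756 to 28028365 at day 9, and MPS VII libraries 15772761 to 22471728 at day 14 and 21419930 to 27102423 at day 9. Age and a difference in depth or in library preparation between ages cannot be told apart here.

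**Figure D4:**
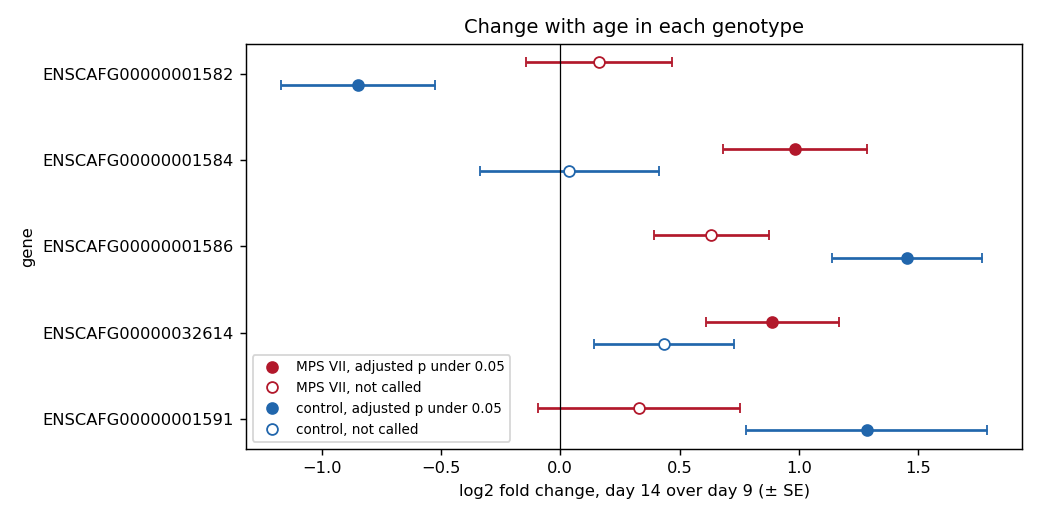
Log2 fold change, day 14 over day 9, with its SE, of each gene in MPS VII (red, upper point of each pair) and control cartilage (blue, lower point). Filled points passed the threshold. ENSCAFG00000001584 and ENSCAFG00000032614 passed in MPS VII cartilage, and ENSCAFG00000001586 and ENSCAFG00000001591 (higher) and ENSCAFG00000001582 (lower) in controls.

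The genotype log2 fold change of day 14 minus that of day 9 took both signs. It was 1.01 ± 0.44 (SE) for the 9858317 gene, 0.94 ± 0.48 for the 9914891 gene and 0.45 ± 0.40 for the 9934948 gene. It was -0.82 ± 0.39 for the 9923301 gene and -0.96 ± 0.65 for the 9990388 gene, and for the 9990388 gene it was -0.39 without control replicate 2 of day 14. These differences were not tested, since both comparisons chose the genes, and a call in a single genotype does not show that the age change differed between genotypes.

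Animals of a group were not ordered alike by the 5 genes. MPS VII replicate 5 of day 14 was the lowest of its group in 4 of the genes and the highest in the 9990388 gene. Control replicate 2 of day 14 was lowest in the 9914891 and 9923301 genes and highest in the 9934948 and 9990388 genes. The summed CPM of the 5 genes ran from 24.0 to 54.97 in MPS VII libraries of day 14 and from 6.18 to 8.69 in controls. At day 9 it ran from 22.2 to 31.7 in MPS VII libraries and from 4.18 to 8.18 in controls.

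With group means removed, the 10 pairs of genes were compared over the 20 libraries on the log2 scale of CPM plus 0.5. Over all 20 libraries the highest r was between the neighbouring 9914891 and 9923301 genes, with Pearson r = 0.672 (permutation p = 0.00525 within groups, two-sided, adjusted p = 0.0525 over 10 pairs) and Spearman rho = 0.602 (permutation p = 0.0118, adjusted p = 0.118). Without the 2 libraries farthest from the median of the 9914891 gene r was 0.435. Leaving out extremes also narrows the range of that gene, so the lower r does not show that the relation rests on those libraries. The next was between the 9914891 and 9934948 genes, with r = 0.471 (permutation p = 0.0489, adjusted p = 0.2445) and rho = 0.377 (permutation p = 0.138, adjusted p = 0.543), and r = 0.265 without 2 libraries. The 9923301 and 9934948 genes had r = 0.377 (permutation p = 0.09299, adjusted p = 0.3100) and rho = 0.338 (permutation p = 0.163, adjusted p = 0.543), and r = 0.444 without the 2 libraries farthest from the median of the 9923301 gene. No pair passed the adjusted threshold. The 4 pairs with the 9990388 gene had r between -0.227 and 0.0269. Without the 2 libraries farthest from the median of the other gene of each pair, r was between 0.044 and 0.262.

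A property of the counts also set the 9858317 gene apart. Many counts in this table are even numbers, as they would be where both mates of a read pair were counted singly. The 9858317 gene had even counts in 8 of 20 libraries (40.0%), and only 5.64% of the 3846 tested genes with 540 to 3639 counts in all had a lower share. The other genes had even counts in 17 (9914891 and 9934948), 15 (9923301) and 20 (9990388) of 20 libraries, beside a median of 60.0% in those 3846 genes. A possible part of strand or of overlapping transcripts in these counts was not tested.

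The genes whose profile over the 20 libraries was most like the mean standardised profile of the 5 were sought among 12868 other tested genes with a mean of at least 1 CPM. Since the groups lie far apart, these correlations mainly hold the group differences, and they are given as a description. The closest was ENSCAFG00000002753 on chromosome 14, from 36918913 to 36947518, with r = 0.957 and rho = 0.926 over 20 libraries. It averaged 815 ± 201 CPM in MPS VII libraries of day 14 and 9.24 ± 4.91 CPM in controls, and 303 ± 69.2 CPM in MPS VII libraries of day 9 and 2.31 ± 1.31 CPM in controls (SD, n = 5 each). Next came a gene on chromosome 24 from 26774177 to 26801096 (r = 0.956), a gene on chromosome 18 from 55042097 to 55048143 (r = 0.948), a gene on chromosome X from 92407953 to 92444533 (r = 0.948) and a gene on chromosome 9 from 37734558 to 37740115 (r = 0.943). All 5 had a higher mean in MPS VII than in control cartilage at both ages, by log2 fold changes of 0.87 to 6.46 at day 14 and 0.69 to 7.05 at day 9. With group means removed the highest r was 0.847, with a gene on chromosome 16 from 44550409 to 44574420, and none of the 5 genes above was among the top 5.

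**Figure D5:**
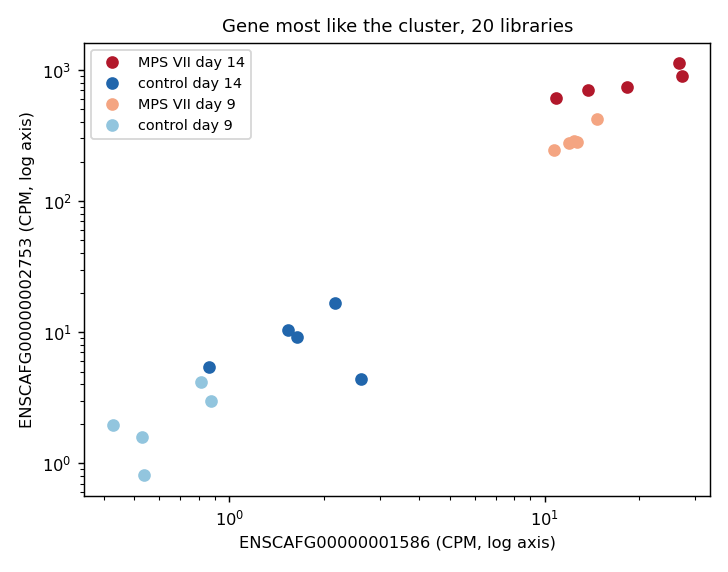
CPM of the gene most like the cluster, ENSCAFG00000002753, against CPM of ENSCAFG00000001586 in each of 20 libraries (log axes), coloured by group. MPS VII libraries lie at or above 10.7 CPM on the horizontal and 247 CPM on the vertical axis, and control libraries at or below 2.61 and 16.8 CPM.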

How the data were processed

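The authors deposited a table of raw counts per gene with exon positions, strand and exon length, per the file headers. Per the labels' protocols, a stranded mRNA kit and paired 100-base reads were used, and reads were mapped to CanFam3.1 (Ensembl build 77). Tools listed in the submitters' processing notes are STAR 2.4.0j, HTSeq, edgeR, bcl2fastq and CASAVA 1.8.2. Whether counting used strand is not given in the sources used here. Overlapping, antisense and near-identical genes are therefore uncertain. Libraries were taken as separate animals from the labels alone. No pair of libraries within a group looked like the same library deposited again (40 pairs, chi-square per gene 16.7 to 607), which does not show that animals differ.

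The analysis of counts used edgeR 4.0.16 (R 4.3.3). The filterByExpr function kept 14550 of 24580 genes, dropping 0.0413% of counts. Libraries were scaled by TMM, and a single quasi-likelihood fit held 1 mean per group over 20 libraries. Adjusted p-values (Benjamini-Hochberg, all tested genes) were called under 0.05. Each standard error is the size of the log2 fold change over the root of its F statistic. RPKM was computed from CPM and the deposited exon length.

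The members and lists were chosen with earlier results of these data known. The rule for named genes took all members, all other genes between them, the 3 nearest genes on each side, and the 5 genes with the highest r to the members' mean profile (log2 CPM, prior count 2). Marker and pathway lists were not used because no identifier could be paired with a name, and no sequence is shown for the same reason. Alternatives were median-ratio and upper quartile scaling, DESeq2 1.42.0, no filter, halved counts, no robust estimation, only the compared groups, and leaving out each library. Means without MPS VII replicate 3 of day 9, values for the minus-strand genes alone and correlations without 2 libraries were added after the data were seen.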

Additional observations from a re-analysis of the deposited data

How the results depend on the processing

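No reported value changed sign in a called result under 7 other settings or with any of 20 libraries left out. The number of genes that changed with age in MPS VII cartilage was 1 in place of 2 with only the compared groups in the fit, where the 9914891 gene lost its call (edgeR adjusted p = 0.0662), and it ran from 0 to 3 with single libraries left out. In controls the number ran from 1 to 3 with single libraries left out. In controls the 9858317 gene lost its call without the filter on low counts (edgeR adjusted p = 0.0622), and the 9990388 gene with upper quartile scaling (edgeR adjusted p = 0.0502). The 9990388 gene failed the filter when only controls were fitted and then gave no value. The 9923301 gene passed in MPS VII cartilage with counts halved (edgeR adjusted p = 0.0317) and with DESeq2 (DESeq2 adjusted p = 0.0386). The cause of these shifts was not tested. The median genotype log2 fold change of the 5 genes ran from 1.46 to 2.19 at day 14 and from 2.37 to 2.87 at day 9 with single libraries left out. No paired analysis was possible because the labels give no litters or pairing, and the replicate numbers used here only follow accession order. Depth limits the 9990388 gene most, with 2 to 10 counts per control library at day 9.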
